A study of Mus musculus with 4 samples.

Results

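The genes described here are 4 thrombospondins (Thbs1, Thbs2, Thbs3 and Thbs4) and 6 proteases of the ADAMTS family (Adamts1, Adamts2, Adamts4, Adamts5, Adamts9 and Adamts15), 10 of the 54532 genes in a mouse adrenal read count table. They were matched by symbol, and the set was chosen from a comparison of read counts (CPM, reads of a gene relative to the TMM-scaled library total) between the dexamethasone and PBS libraries, so their differences between those groups are a description and support nothing further. All 10 passed the filter on low counts, with 16027 genes tested in all. Adult C57BL/6 males gave the right adrenal gland 1 h after an intraperitoneal injection. In 1 group of 5 mice the injection was dexamethasone (10 µg), a synthetic glucocorticoid. In the other group of 5 it was the vehicle, sterile phosphate-buffered saline (PBS). Each group was pooled into a library of 2 mice and a library of 3, so n = 2 libraries per group throughout, and the sources used here do not give which replicate holds which pool.

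Thrombospondins are large secreted glycoproteins that bind cell surface receptors, growth factors and matrix. Thrombospondin 1 and thrombospondin 2 restrain blood vessel growth through domains called type 1 repeats, which the other thrombospondins lack. ADAMTS proteases are secreted zinc enzymes that carry the same kind of repeat beside a catalytic domain, and most of the members described here cut large proteoglycans such as versican and aggrecan. The adrenal cortex is densely supplied with capillaries, and in cultured cow adrenocortical cells corticotropin is known to raise thrombospondin 2. Corticotropin secretion by the pituitary is restrained by glucocorticoids.

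Total counts ran from 21904510 to 26948588 per library. Over all genes, 523 were higher and 219 lower after dexamethasone by edgeR's quasi-likelihood test at an adjusted p threshold of 0.05. At an unadjusted p under 0.05 the same test gave 4403 of the 16027 genes tested, for comparison with the unadjusted counts below. The fold changes of all genes ran with gene length: the median log2 fold change was −0.42 in the shortest 10% of protein-coding genes and 0.33 in the longest 10%. Of 17 early response genes, whose transcripts change quickly after a stimulus, 1 was higher and 5 were lower, and PBS replicate 2 stood apart in some others. Fosb, a subunit of the AP-1 transcription factor, was at 15.5 CPM there and 2.56 CPM in PBS replicate 1, and Nr4a2, an orphan nuclear receptor gene, at 40.1 and 11.3 CPM. Both genes were picked after their values were seen. Values without each PBS library are given beside Adamts9 and Adamts15, the members whose PBS libraries lay furthest apart by ratio. Other members also moved when a library was left out, and ranges for some of them are given with the other settings.

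The coding sequences show what the 2 families carry. They come from the longest coding transcript of each gene in GENCODE M21 of GRCm38, and each stretch is on the gene's own strand. In the 6 ADAMTS members a script found 1 match each to the zinc-binding pattern, HExxHxxxxxH, in which the histidines hold the zinc ion and the glutamate takes part in catalysis. The 33 bases that encode it are shown because they mark the protease function that these members share. Capitals mark the codons of the 3 histidines and of the glutamate.
Adamts1: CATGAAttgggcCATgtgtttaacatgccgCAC
Adamts4: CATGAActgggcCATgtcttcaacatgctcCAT
Adamts15: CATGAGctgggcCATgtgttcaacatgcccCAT
Adamts9: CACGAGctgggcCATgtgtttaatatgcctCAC
Adamts5: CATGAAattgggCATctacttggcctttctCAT
Adamts2: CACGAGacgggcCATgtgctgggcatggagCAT
Over the 15 pairs, from 18 to 30 of the 33 bases were the same. Adamts4 and Adamts15, which stood on opposite sides after dexamethasone, were the pair with 30, and Adamts1 shared 28 with Adamts15 and 20 with its chromosomal neighbour Adamts5.

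Matches to the pattern WSxW of type 1 repeats, overlapping ones included, numbered 5 in the coding sequence of Thbs1 and 5 in that of Thbs2. Matches can overlap within the same repeat, so these are not counts of repeats. The pattern was found 0 times in Thbs3, in Thbs4 and in each of the 6 ADAMTS members. The repeats of the ADAMTS members are known from their family, so a count of 0 for these letters does not show that the repeat is absent. The stretch around the first match is shown for the pair that carries it, 30 bases each, with the codons of the 3 fixed residues in capitals. In the Thbs1 stretch a further match begins at the last codon in capitals, and its other codons are left in lower case.
Thbs1: gacgatggcTGGTCTcccTGGtctgagtgg
Thbs2: gatgagggcTGGTCTccgTGGgcagagtgg
Thbs1 and Thbs2 are of nearly the same coding length, 3513 and 3516 bases, and their transcripts behaved differently in the libraries, as follows.

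Thbs1 was lower after dexamethasone, and the other thrombospondins were not called. Thbs1 (ENSMUSG00000040152, GRCm38 chromosome 2, 118111876 to 118127133, plus strand) encodes thrombospondin 1, which also activates latent TGF-beta and signals through CD36 and CD47. It stood at 31.4 and 35.2 CPM in PBS replicates 1 and 2, and at 13.5 and 12.6 CPM in dexamethasone replicates 1 and 2. Both dexamethasone libraries lay below both PBS libraries, and the libraries of each group lay within 1.12 times of each other. The means were 33.3 ± 2.65 CPM (SD, n = 2) after PBS and 13.1 ± 0.686 CPM after dexamethasone, a log2 fold change of −1.35 ± 0.16 (SE), or 2.55-fold lower. Over 12 other settings of the fit the value ran from −1.46 to −1.26.

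Platelets store thrombospondin 1, so their markers were set beside it. Of 8 platelet markers 3 had enough counts to be tested, 0 of them passed in edgeR (1 lower at an unadjusted p under 0.05, 0 by DESeq2 and 0 by limma-voom), and Gp1bb was at 0 counts in every library. The summed level of the 8 was 3.27 to 5.92 CPM after dexamethasone and 6.18 to 9.23 CPM after PBS. Of 5 red cell markers, all short genes of 667 to 2403 bases, 3 were lower in edgeR, 2 by limma-voom and 0 with the length trend removed. They had a sum of 137 to 146 CPM after dexamethasone against 226 to 394 CPM after PBS. The part of blood in the Thbs1 difference was not tested. In a whole gland, fewer cells of a type and less RNA per cell cannot be told apart, here and for every gene below.

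Thbs2 (ENSMUSG00000023885, chromosome 17, 14665500 to 14694235, minus strand), the thrombospondin raised by corticotropin in cow cells, stood at 8.13 and 6.15 CPM in PBS replicates 1 and 2 and at 5.66 and 7.89 CPM in dexamethasone replicates 1 and 2. The groups overlapped, and the log2 fold change was −0.08 ± 0.25 (SE). Thbs3 (ENSMUSG00000028047, chromosome 3, 89215180 to 89226837, plus strand) encodes a thrombospondin without type 1 repeats. It stood at 5.69 and 4.66 CPM after PBS and 5.32 and 4.69 CPM after dexamethasone, and its libraries overlapped too. Its exons share 318 bases with those of Mtx1 on the other strand. Whether counting used strand is not given, and reads from those bases cannot be told apart. Thbs4 (ENSMUSG00000021702, chromosome 13, 92751590 to 92794818, minus strand), a thrombospondin of tendon and muscle matrix, was the least abundant by CPM of the 4. It had 77 and 59 counts in the PBS libraries and 62 and 75 counts in the dexamethasone libraries. Scaled, these were 2.90 and 2.84 CPM against 2.31 and 2.73 CPM, a log2 fold change of −0.19 ± 0.29. The groups did not overlap, and the difference was smaller than its standard error.

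**Figure D1:**
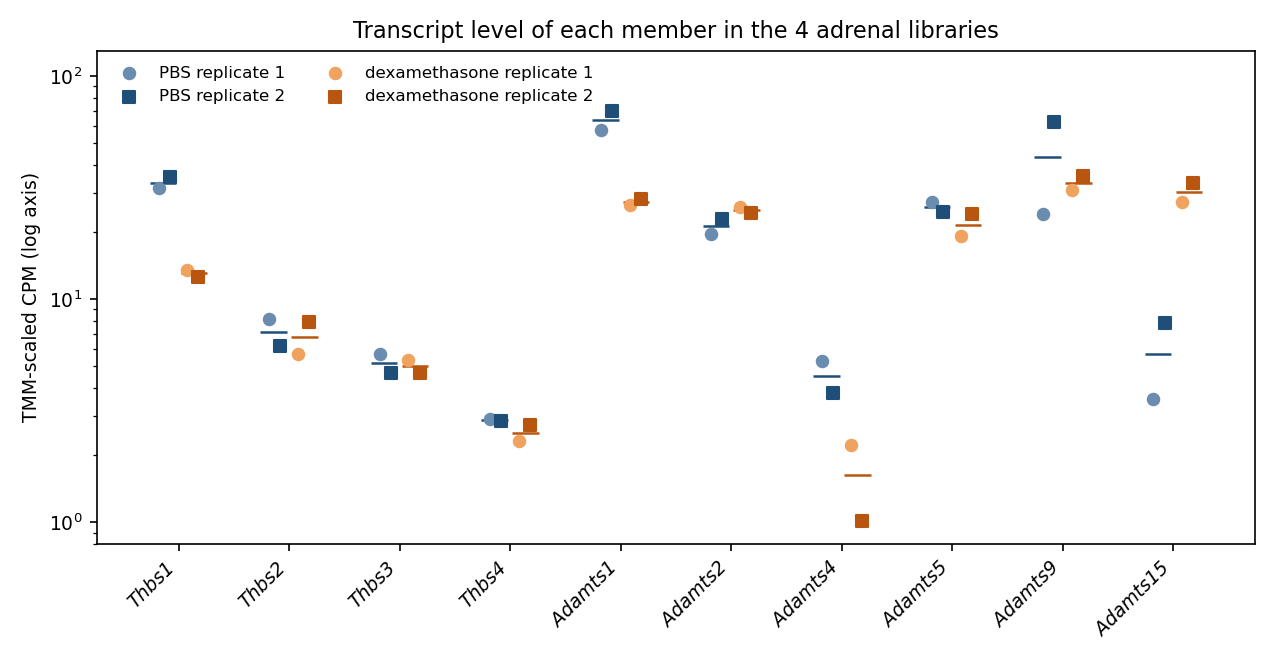
TMM-scaled CPM on a log axis for each member, with 1 point for each of the 4 libraries (blue for PBS, orange for dexamethasone, circles for replicate 1, squares for replicate 2) and a short line for the mean of each group. Thbs1 and Adamts1 lie lower in both dexamethasone libraries, Adamts15 lies higher, and the PBS libraries of Adamts9 lie at 24.2 and 62.6 CPM.

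Among the proteases the differences went both ways. Adamts1 and Adamts4 were at lower levels after dexamethasone and Adamts15 at a higher level, with Adamts1 and Adamts15 past the threshold. Adamts1 (ENSMUSG00000022893, chromosome 16, 85793827 to 85803113, minus strand) encodes a protease that cuts versican and aggrecan, is induced in the ovary at ovulation and, like thrombospondin 1, restrains vessel growth. It stood at 57.4 and 69.5 CPM in PBS replicates 1 and 2 and at 26.5 and 28.3 CPM in dexamethasone replicates 1 and 2. The groups did not overlap, and the lower PBS library was still above the higher dexamethasone library by more than the spread of either group. The log2 fold change was −1.21 ± 0.15 (SE), or 2.32-fold lower, and it ran from −1.36 to −1.08 over the 12 other settings.

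The promoter of Adamts1 is shown because it is the only one of the 3 members past the threshold with an entry in the RefSeq promoter table for GRCm38.p6, which held 6 of the 10 members. It spans chr16:85803064-85803363 on the minus strand, from 250 bases before the gene's start to 50 bases after it, and is printed 5′ to 3′. Capitals mark matches to a TATA motif (TATAA) and to GC boxes (GGGCGG).
Adamts1: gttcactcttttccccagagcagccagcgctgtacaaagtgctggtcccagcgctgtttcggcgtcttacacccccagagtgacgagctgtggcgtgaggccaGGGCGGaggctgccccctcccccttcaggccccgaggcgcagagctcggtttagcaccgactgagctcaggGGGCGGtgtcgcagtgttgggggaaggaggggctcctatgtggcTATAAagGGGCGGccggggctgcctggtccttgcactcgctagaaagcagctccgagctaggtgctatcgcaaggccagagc
The TATA match begins at position −32 from the start and the GC boxes at −147, −76 and −25. Of all 32851 promoters of this length in the table, 24.9% held TATAA and 35.7% held GGGCGG on either strand. Of the 14972 promoters of tested genes, among them the 6 of the members, 13.99% held TATAA and 59.7% held GGGCGG.

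In the same search, on both strands, these letters were not found in any of the 6 promoters for the cAMP response element TGACGTCA (1.79% of all promoters and 2.85% of those of tested genes), the AP-1 motif TGANTCA (7.81% and 5.36%), the NR4A motif AAAGGTCA (1.51% and 1.14%), the SF-1 motif CAAGGTCA (1.56% and 1.14%) and the glucocorticoid receptor half-site AGAACA (19.0% and 12.9%). The NR4A and SF-1 motifs differ only in their first letter. GC boxes were found in 5 of the 6 promoters (Adamts1, Adamts2, Adamts9, Thbs3 and Thbs4) and TATAA in Adamts1 and Thbs2. The matches are letters in a short window and show no binding.

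Adamts4 (ENSMUSG00000006403, chromosome 1, 171250421 to 171260637, plus strand), the aggrecanase-1 gene, was the lowest member in the dexamethasone libraries. It had 141 and 79 counts in PBS replicates 1 and 2 and 60 and 28 counts in dexamethasone replicates 1 and 2, or 5.31 and 3.80 CPM against 2.23 and 1.02 CPM. The groups did not overlap, but the dexamethasone libraries differed 2.19-fold from each other. The log2 fold change of −1.49 ± 0.39 (SE) was larger than that of Thbs1 and did not pass. It passed in 7 of the 12 other settings, DESeq2 among them, and ran from −2.17 without dexamethasone replicate 1 to −1.03 without dexamethasone replicate 2.

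Adamts15 had the largest difference of the 10 members and was the single member called higher. Adamts15 (ENSMUSG00000033453, chromosome 9, 30899155 to 30922452, minus strand) encodes a protease that cuts versican and aggrecan. It had 95 and 163 counts in PBS replicates 1 and 2 and 736 and 913 counts in dexamethasone replicates 1 and 2. Scaled, these were 3.58 and 7.84 CPM after PBS and 27.4 and 33.2 CPM after dexamethasone. The PBS libraries differed 2.19-fold from each other, and both lay far below both dexamethasone libraries. The log2 fold change was 2.43 ± 0.31 (SE), or 5.37-fold higher. Leaving out PBS replicate 1 gave 1.93 and leaving out PBS replicate 2 gave 3.07. Removing the length trend gave 2.18.

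Adamts9 (ENSMUSG00000030022, chromosome 6, 92772699 to 92943492, minus strand), another protease of versican and aggrecan, differed more within the PBS group than between the groups. Its PBS libraries, replicates 1 and 2, held 24.2 and 62.6 CPM, while the dexamethasone libraries were at 30.9 and 35.9 CPM, between them. The ratio of 2.59 between the PBS libraries was the widest within either group for any member. The exons of Adamts9 share 1381 bases with those of A730049H05Rik and 424 with those of Gm15737 on the other strand. The limit on strand given for Thbs3 applies here too. The log2 fold change of −0.37 ± 0.35 (SE) turned to 0.45 without PBS replicate 2 and passed at −0.93 without PBS replicate 1. Adamts9 and Adamts15 were both higher in PBS replicate 2 than in PBS replicate 1. PBS replicate 2 had the higher Fosb and Nr4a2 and the lower Nr4a1, and the part of what sets it apart was not tested.

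Adamts5 and Adamts2 differed less between the groups and were not called. Adamts5 (ENSMUSG00000022894, chromosome 16, 85856173 to 85901828, minus strand) encodes aggrecanase-2 and lies next to Adamts1 on the same strand, 53059 bases away with 1 annotated noncoding gene between them. It stood at 27.4 and 24.7 CPM after PBS and at 19.1 and 24.0 CPM after dexamethasone. These groups nearly met, and the log2 fold change of −0.27 ± 0.17 (SE) became −0.51 with the length trend removed, without passing. Adamts1 was at −1.21 in the same libraries; the difference between the neighbours was not tested. Adamts2 (ENSMUSG00000036545, chromosome 11, 50602084 to 50807573, plus strand) encodes an enzyme of collagen maturation, which trims the amino end of procollagens. It stood at 19.7 and 22.9 CPM after PBS and at 25.9 and 24.4 CPM after dexamethasone. The log2 fold change of 0.24 ± 0.16 was 0.04 with the length trend removed.

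**Figure D2:**
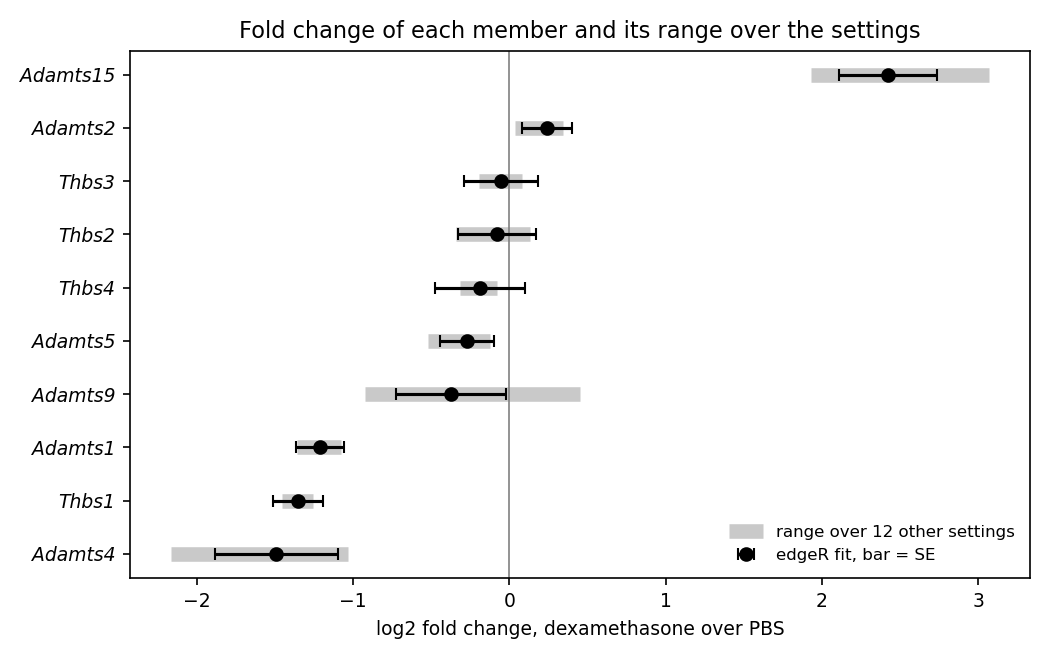
Log2 fold change of dexamethasone over PBS for each member, as a point with its standard error, and the range over 12 other settings of the fit as a grey bar. Thbs1, Adamts1, Adamts4, Thbs4 and Adamts5 lie below 0 and Adamts15 and Adamts2 above 0 in all of these settings. The bars of Thbs2, Thbs3 and Adamts9 cross 0.

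Counted over the set, 1 of the 10 members was called higher, against 3.26% of all genes tested, and 2 were called lower, against 1.37%. The libraries did not overlap between groups for 2 members with both dexamethasone libraries higher, against 30.8% of all genes tested, and for 5 members with both lower, against 29.7%. The median log2 fold change was −0.23 over the 10 members and 0.01 over all genes tested. As the set was chosen with this comparison known, nothing is read from these counts.

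Levels per kilobase of listed gene length (CPM divided by the length, RPKM) allow the members to be compared with each other. After PBS, Adamts1 was the most abundant at 11.97 ± 1.61 RPKM (SD, n = 2), and Thbs1 was next at 5.49 ± 0.436 RPKM. Neither overlapped the member ranked below it. Adamts9, Adamts5 and Adamts2 followed at 2.88, 2.41 and 2.28 RPKM, and neighbours among these 3 overlapped. Thbs3, Thbs2, Adamts4 and Thbs4 lay between 1.07 and 0.872 RPKM, each overlapping the next, and Adamts15 was last at 0.551 ± 0.291 RPKM.

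After dexamethasone the order of these levels differed. Adamts1 was still the most abundant, at 5.17 ± 0.237 RPKM. Adamts15 was second at 2.92 ± 0.395 RPKM, overlapping Adamts2 at 2.69 ± 0.120 RPKM. Adamts9, Thbs1 and Adamts5 came next at 2.22, 2.15 and 2.00 RPKM, with Adamts9 overlapping Thbs1 and Thbs1 overlapping Adamts5. Thbs3, Thbs2 and Thbs4 lay at 1.04, 0.967 and 0.765 RPKM, and Adamts4 was last at 0.338 ± 0.179 RPKM.

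Within the 6 ADAMTS members, Adamts1 made up 58.4% and 55.7% of the summed RPKM in PBS replicates 1 and 2 and 34.0% and 33.4% in dexamethasone replicates 1 and 2. Adamts15 made up 1.86% and 3.21% after PBS and 17.97% and 20.06% after dexamethasone. The sum over the 6 was 18.5 and 23.5 RPKM after PBS and 14.7 and 15.97 RPKM after dexamethasone. Among the 4 thrombospondins, Thbs1 made up 61.6% and 68.1% of the summed RPKM after PBS and 46.1% and 41.4% after dexamethasone. That sum was 8.40 and 8.501 RPKM after PBS and 4.84 and 5.00 RPKM after dexamethasone. These shares follow from the fold changes above and are a second view of the same values.

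**Figure D3:**
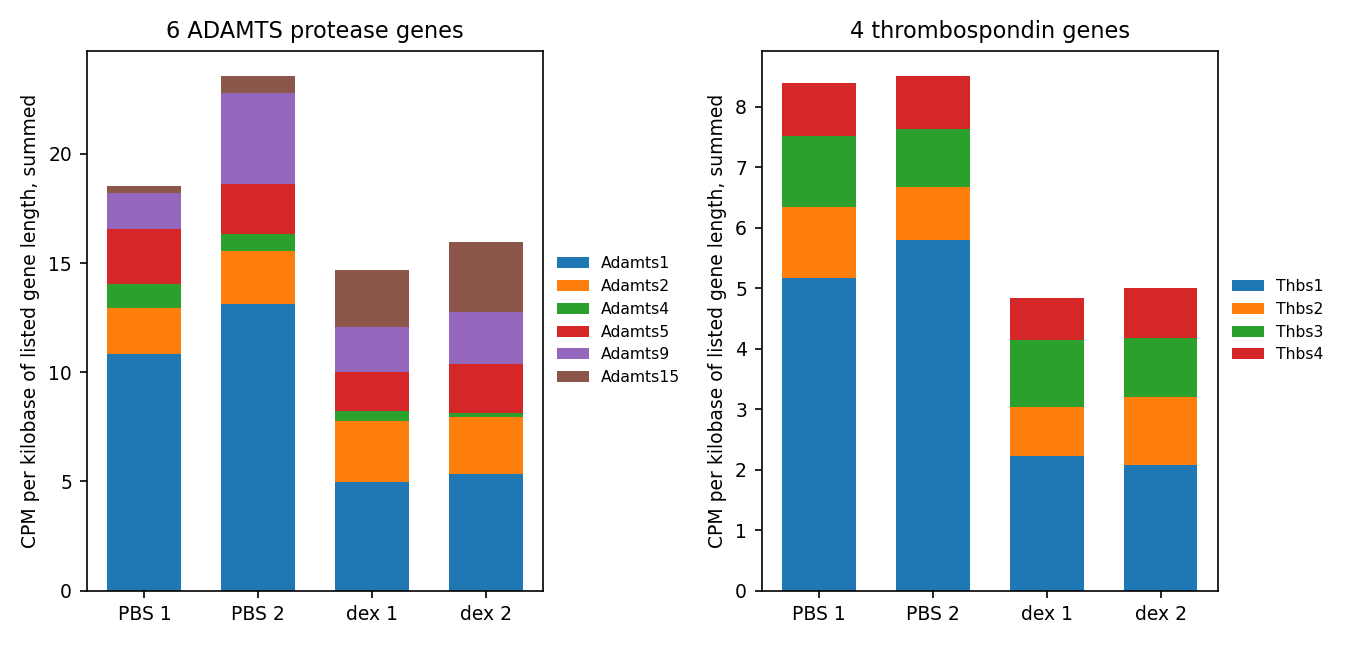
Summed CPM per kilobase of listed gene length in each of the 4 libraries, stacked by gene, for the ADAMTS members on the left and the thrombospondins on the right. The Adamts1 band is the largest in all 4 libraries, and the Adamts15 band goes from 1.86% and 3.21% of the sum after PBS to 17.97% and 20.06% after dexamethasone.

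The members' lengths bear on these values, since longer genes tended to be higher after dexamethasone. The listed length, which equals the summed exon length in GENCODE M21 for all 10 members, runs from 3289 bases for Thbs4 to 15048 bases for Adamts9. For protein-coding genes of a length like that of Thbs1 and of Adamts1 (within 0.25 on the log2 scale) the median log2 fold change was 0.11 and 0.07, against −1.35 and −1.21 for the members themselves. For genes as long as Adamts15 it was 0.25, against 2.43 for the member. For genes as long as Adamts2 the median was 0.22, against 0.24 for the member. With the trend removed the log2 fold changes were −1.46 for Thbs1, −1.29 for Adamts1 and 2.18 for Adamts15, and these 3 were again the members past the threshold.

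**Figure D4:**
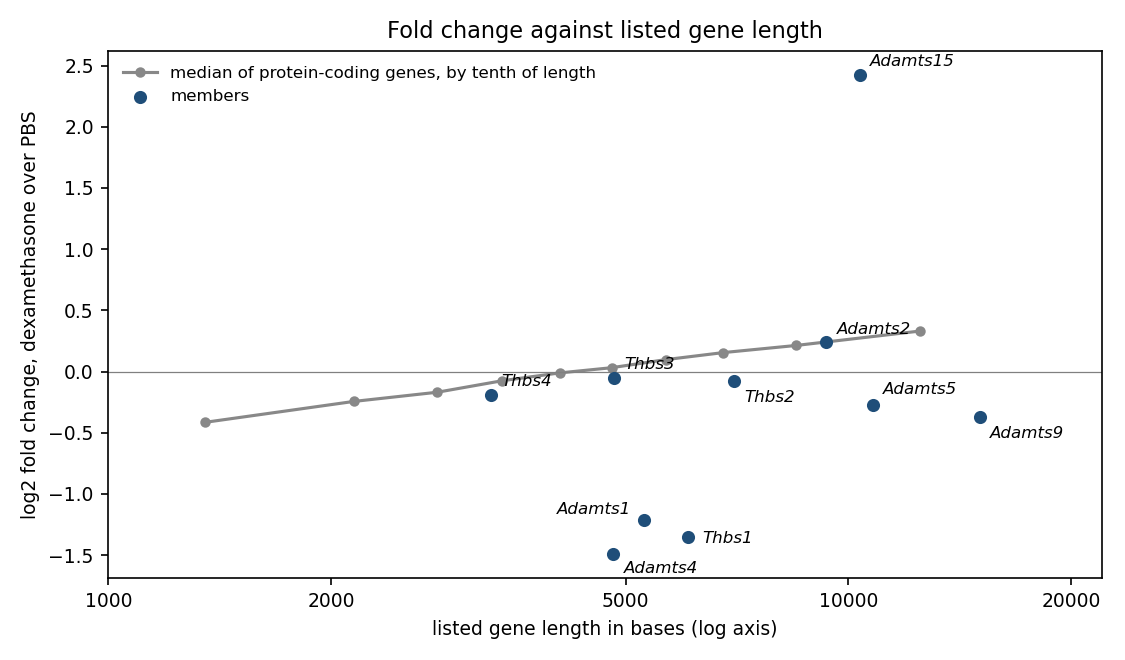
Log2 fold change of dexamethasone over PBS against listed gene length in bases on a log axis, for the 10 members (blue points, named) and as the median of protein-coding genes in each 10% of the genes by length (grey line). The line goes from −0.42 to 0.33, and Thbs1, Adamts1, Adamts4 and Adamts15 lie far from it.

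The other genes of these pathways were taken from 7 lists: the remaining family members, ADAMTS substrates, inhibitors and activators, thrombospondin receptors, other matricellular proteins, other extracellular metalloproteases, and factors of vessel growth. Of their 118 genes 106 were tested, 3 rose (Adamts6, Itgb3 and Flt1), and 0 fell by edgeR. At an unadjusted p under 0.05, 30 were higher and 8 lower. DESeq2 called 8 higher and 0 lower, and limma-voom 3 higher and 0 lower. The 3 calls are 2.83% of the list genes tested, near the 3.26% of all genes that were higher, while 1.37% of all genes were lower. The median log2 fold change over the 106 was 0.15.

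Of the 20 remaining family genes 13 were tested. Adamts6, a protease gene needed for heart development in the mouse, rose from 5.99 and 3.94 CPM after PBS to 9.79 and 10.8 CPM after dexamethasone. Its log2 fold change was 1.04 ± 0.24 (SE, n = 2 per group, edgeR adjusted p = 0.0478), and it did not pass in 5 of the 12 other settings, among them 0.88 with the length trend removed, 0.97 when dexamethasone replicate 2 was left out and 0.77 when PBS replicate 2 was. The most abundant of the others were Adamtsl2, at 0.54 ± 0.16, and Adamtsl1, at 0.31 ± 0.16, which encode ADAMTS-like matrix proteins with no protease domain. Neither passed. The remaining 7, among them Comp, the fifth thrombospondin gene, had too few counts to be tested.

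The substrates and their regulators gave no call. Of 13 tested matrix substrates 0 passed in edgeR (4 higher and 2 lower at an unadjusted p under 0.05, 0 by DESeq2 and 0 by limma-voom). Their median log2 fold change was 0.34. The small proteoglycan gene Bgn had 333 and 345 CPM in the PBS libraries and 365 and 377 CPM in the dexamethasone libraries (log2 fold change 0.13 ± 0.14, SE), and the collagen gene Col1a2 was at −0.06 ± 0.14. Of 12 inhibitors, activating convertases, cofactors and clearance receptors 0 passed in edgeR (2 higher and 1 lower at an unadjusted p under 0.05, 2 higher by DESeq2 and 0 by limma-voom). Timp3, the main tissue inhibitor of ADAMTS proteases, had 667 and 641 CPM in the PBS libraries and 897 and 1004 CPM in the dexamethasone libraries, a log2 fold change of 0.54 ± 0.15 that did not pass (edgeR adjusted p = 0.0669). Lrp1, a receptor that clears these proteases and thrombospondins from the matrix, was at 0.54 ± 0.16 and did not pass either (edgeR adjusted p = 0.0833).

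Of 19 receptors and partners of thrombospondins 1 rose, Itgb3, and 18 did not pass. Itgb3, whose integrin binds thrombospondin 1, went from 16.1 and 15.96 CPM after PBS to 52.4 and 55.5 CPM after dexamethasone (log2 fold change 1.753 ± 0.15, SE, n = 2 per group, edgeR adjusted p = 0.00426), and passed in all 12 other settings. Its alpha partner Itgav, named after its value was seen, was at 0.22 ± 0.14 and did not pass. Calr and Itgb1, the most abundant members that did not pass, were at −0.29 ± 0.16 and 0.09 ± 0.14. Cd36 and Cd47, receptors of thrombospondin 1 that were named after their values were seen, were at 0.32 ± 0.15 and 0.34 ± 0.14.

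No matricellular gene and no other extracellular metalloprotease passed in edgeR. For the 13 matricellular genes tested there were 2 higher and 0 lower at an unadjusted p under 0.05, and 0 by DESeq2 or limma-voom. Sparc, the most abundant, was at −0.19 ± 0.16 (SE) and Smoc1 at −0.07 ± 0.15. For the 17 metalloproteases tested there were 5 higher and 0 lower at an unadjusted p under 0.05, 1 higher by DESeq2 and 0 by limma-voom. Adam9 and Adam10, the most abundant, were at 0.31 ± 0.14 and 0.36 ± 0.14.

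Of 19 genes of vessel growth 1 rose. Flt1, which encodes a receptor of vascular endothelial growth factor, was at 166 and 149 CPM after PBS and at 259 and 276 CPM in the dexamethasone libraries (log2 fold change 0.77 ± 0.14, SE, n = 2 per group, edgeR adjusted p = 0.0241). It did not pass in 4 of the 12 other settings, among them the length trend removed (0.48) and dexamethasone replicate 2 left out (0.72). Epas1, a hypoxia factor, was at 0.56 ± 0.15, and Vegfa, the growth factor itself, at −0.56 ± 0.24, with 422 and 244 CPM in the PBS libraries. Neither passed.

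**Figure D5:**
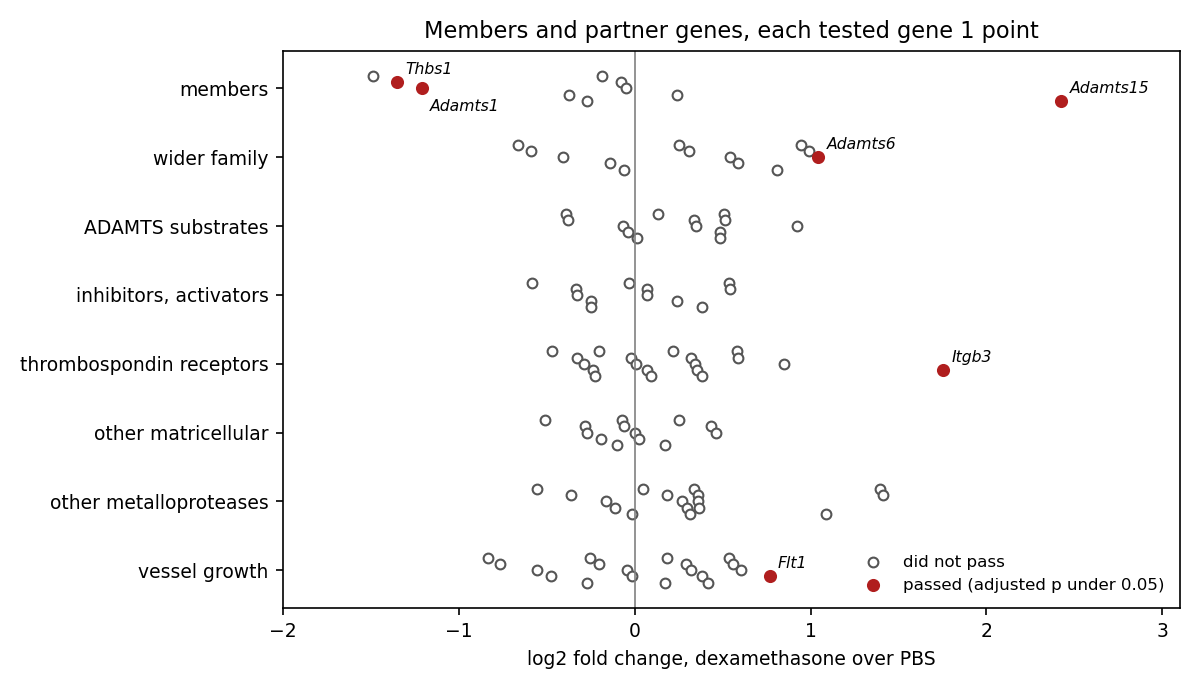
Log2 fold change of dexamethasone over PBS for the 10 members and for the tested genes of the 7 lists, 1 point per gene, spread vertically for legibility. Filled red points passed at an adjusted p under 0.05: Thbs1, Adamts1 and Adamts15 among the members, and Adamts6, Itgb3 and Flt1 among the 106 other genes.

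Markers of the cell types that a gland could hold were set beside the members. Endothelial markers summed to 840.0 to 847 CPM after dexamethasone and 812 to 833 CPM after PBS, with 1 of 10 lower (Cldn5). Mural cell markers summed to 309 to 309.8 CPM and 299 to 303 CPM, and 0 of 9 passed in edgeR (1 higher and 1 lower at an unadjusted p under 0.05, 1 and 1 by DESeq2, 0 by limma-voom). Fibroblast and capsule markers summed to 753 to 777 CPM after dexamethasone and 825 to 912 CPM after PBS, with 1 of 10 lower in edgeR (Rspo3). Of these 10, 9 had a negative log2 fold change, with 5 lower at an unadjusted p under 0.05, 1 by DESeq2 and 1 by limma-voom. Neither Cldn5 nor Rspo3 passed with the length trend removed. Macrophage markers summed to 262 to 315 CPM after dexamethasone and 243 to 312 CPM after PBS, and 2 of 7 were higher, Mrc1 at 1.24 and Cd163 at 0.91 on the log2 scale, of which 1 passed with the length trend removed. Chromaffin cell markers ranged widely within both groups, from 8553 to 11203 CPM after dexamethasone and from 7714 to 11798 CPM after PBS, and 0 of 7 passed in edgeR (0 at an unadjusted p under 0.05, 0 by DESeq2 and 0 by limma-voom). Summed levels of adipocyte markers were 244 to 378 CPM after dexamethasone and 282 to 402 CPM after PBS, and those of Schwann cell markers 29.7 to 30.6 CPM and 23.2 to 25.5 CPM. Markers of steroid-making cortex summed to 42232 to 45542 CPM after dexamethasone and 59944 to 60446 CPM after PBS, with 1 of 8 lower in edgeR (Nr5a1). All 8 cortex markers had a negative log2 fold change, with 5 lower at an unadjusted p under 0.05, 3 by DESeq2 and 1 by limma-voom. None of the endothelial, mural, fibroblast, macrophage, chromaffin, adipocyte, Schwann cell or cortex markers was at 0 counts in any library. The cell type that holds each member transcript was not measured, and the part of these lists in the members' values was not tested.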

How the data were processed

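RNA was extracted from pooled right adrenal glands and sequenced as paired ends. The authors deposited raw read counts, 1 whole number per gene and library, and a listed gene length (another unit, in bases). Per the submitters' processing notes, CASAVA 1.8, STAR 2.5, HTSeq 0.6.1 and mm10 (GRCm38) were used; strand use is not given in the sources used here. Column initials were read as dexamethasone and saline, with the number as the replicate. Of the identifiers, 54495 were in GENCODE M21, 98.3% of them at the same coordinates.

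Counts passing filterByExpr were fitted with edgeR 4.0.16 in R 4.3.3 (TMM, glmQLFit, glmQLFTest, group as the sole term, 2 residual degrees of freedom, Benjamini-Hochberg over 16027 genes, threshold 0.05). Standard errors are the log2 fold change over the square root of F. P-values measure the spread between pools. Libraries of a group differed by chi-squares of 24.1 and 31.7 per degree of freedom, so each was kept. The fit was tested on simulated counts. Alternatives used DESeq2 1.42.0, limma 3.58.1, other scaling, no filter, a linear length trend removed per library, the replicate number as a block, and each library left out.

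Members and lists were chosen with earlier results of these data known. Named genes are the members, list genes that passed, and the 2 most abundant others per list. Itgav, Cd36, Cd47, Fosb, Nr4a2 and the PBS values of Nr4a1 were added after their values were seen. A check bearing on Adamts4 counts is not reported here.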

Additional observations from a re-analysis of the deposited data

How the results depend on the processing

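Thbs1, Adamts1 and Adamts15 kept their direction and their calls in all 12 other settings. The log2 fold change of Thbs2 changed sign with library totals (0.0084) and ran from −0.34 to 0.14 over the libraries left out; that of Thbs3 did so with library totals (0.039) and ran from −0.20 to 0.084; and that of Adamts9 ran from −0.93 to 0.45. None of these 3 was called in the main setting. The members called lower numbered 2, and 2 to 4 over the libraries left out. The counts over all genes, 523 higher and 219 lower, moved more: 893 higher with library totals (83.2% of the calls, against 70.5%, with the median of all genes at 0.10), 1384 and 1329 with no filter, 869 and 841 by DESeq2, 260 and 125 with the length trend removed, 244 and 89 with the replicate block, and 208 and 105 with both. With 1 library left out they ran from 337 to 1595 higher and from 147 to 1747 lower. Of the partner genes, 3 were higher in the main setting, 11 with library totals, 19 with no filter, 8 by DESeq2, 1 with the length trend removed, 1 with the replicate block, 1 with both, and 1 to 17 over the libraries left out; 0 were lower, 3 with no filter and 0 to 5 over the libraries left out. The cause was not tested. The deviations of same-numbered libraries from their group means had a correlation of −0.03 across genes. It rests on 1 difference per group and cannot show whether these libraries share anything beyond the number. With the replicate block 3 members were called lower, Adamts4 being the added one, and Adamts6 (1.07) and Flt1 (0.77) did not pass. A group left with 1 library is assumed to vary like the other. Thbs4 and Adamts4 rest on 28 to 141 counts per library.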
